A study of Mus musculus with 14 samples.

Results

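The mouse receptors for the constant part of IgG were examined across 14 arrays of sorted bone marrow cells. The genes are Fcgr1, Fcgr3 and Fcgr4, which encode the activating receptors, Fcgr2b, which encodes the inhibitory receptor, and Fcer1g, which encodes the common signalling chain. They were chosen by their gene symbols in the platform annotation, with the log2 levels of these same arrays in the 3 groups already known, so their differences between groups are given as a description and carry no p-value. The 5 genes are measured by 8 probe sets, of 12393 genes and 22626 probe sets in all. Fcgr2b has 4 of the probe sets, and each of the other genes has 1. None of these probe sets is annotated to more than 1 gene.

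The cells carried Sca1 at their surface and lacked cKit, the markers by which they were sorted. The Instigator group (n = 5) came from mice with a BPLER tumour, the Non-instigator group (n = 5) from mice with a size-matched PC3 tumour, and the Matrigel group (n = 4) from mice given Matrigel as the tumour-free control. BPLER is a line of transformed human mammary epithelial cells, PC3 is a human prostate carcinoma line, and Matrigel is a basement membrane extract. Instigation is the promotion, at a distance and within 1 host, of the outgrowth of otherwise indolent tumour cells. The sources used here do not give the strain or age of the mice or the time of collection. Each tumour group rests on a single tumour line. The labels do not say whether each array is a separate animal, so a p-value reflects only how far these samples spread, and that spread may be technical. They give no batch either.

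Receptors of this family bind IgG on antigen-coated particles and immune complexes. The activating receptors have ligand-binding chains that pair with the common chain, whose immunoreceptor tyrosine-based activation motif (ITAM) recruits the kinase Syk and leads to phagocytosis, an oxidative burst or killing of the coated target. Fcgr2b carries an inhibitory motif (ITIM) in its own tail and recruits the lipid phosphatase SHIP1, which restrains the same signals. In bone marrow and blood, the activating receptors mark monocytes, macrophages, neutrophils and natural killer (NK) cells, and Fcgr2b is the IgG receptor of B cells as well as of many myeloid cells.

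Levels are log2 values of the deposited intensity, and a difference of 1 on this scale is a doubling. Instigator 4 and Matrigel 3 stood apart from the other arrays. On Instigator 4 the 5′ minus 3′ difference of the beta-actin control was -3.41, against -0.81 to -0.51 on the other arrays, and Matrigel 3 had the highest median intensity, 145 against 119 to 129. The array titled Instigator 5 has a BPLER source label, but its description names the PC3 tumour, and it was kept with its title. Kit (encoding cKit) averaged 7.58 ± 0.22 in the Instigator group, 7.37 ± 0.45 in the Non-instigator group and 7.52 ± 0.37 in the Matrigel group. Ptprc, the common leukocyte antigen CD45, averaged 11.38 ± 0.33 in the Instigator, 11.41 ± 0.22 in the Non-instigator and 11.37 ± 0.26 in the Matrigel group (SD, n = 5, 5 and 4). No array of unsorted cells is among the 14, so the levels of Kit and Ptprc do not test the sort. Ly6a, which encodes Sca1, is not analysed here.

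Fcgr2b, Fcgr4 and Fcgr3 lie next to each other on chromosome 1 with 0 other protein-coding genes between them. Fcer1g follows on the same chromosome after 7 more genes, and Fcgr1 is alone on chromosome 3. The stretch of 250 bases before the annotated start of 4 of the genes is printed to set the promoter of Fcgr1, the member with the largest difference below, beside those of its neighbours in function. The sequences are from RefSeq on build GRCm38.p6, each read 5′ to 3′ on the gene's own strand. They are chr3:96293970-96294219 (minus strand) for Fcgr1, chr1:171059404-171059653 (minus strand) for the more upstream of the annotated starts of Fcgr3, chr1:171018676-171018925 (plus strand) for Fcgr4 and chr1:170976072-170976321 (minus strand) for Fcgr2b. Capitals mark matches to a pair of motifs that were searched on both strands. The motifs are the GAS element TTCNNNGAA, the interferon-gamma activated site, and the PU box GAGGAA, the core bound by the myeloid factor PU.1.
Fcgr1: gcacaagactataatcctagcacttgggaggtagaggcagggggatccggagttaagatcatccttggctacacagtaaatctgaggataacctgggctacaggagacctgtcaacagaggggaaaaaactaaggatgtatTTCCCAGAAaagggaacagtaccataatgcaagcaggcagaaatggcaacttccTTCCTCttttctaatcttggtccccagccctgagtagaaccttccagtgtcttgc
Fcgr3: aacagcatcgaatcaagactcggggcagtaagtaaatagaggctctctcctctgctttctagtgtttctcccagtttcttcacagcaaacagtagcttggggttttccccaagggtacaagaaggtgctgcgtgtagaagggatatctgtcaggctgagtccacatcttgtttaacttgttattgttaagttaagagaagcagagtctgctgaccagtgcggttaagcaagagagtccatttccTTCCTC
Fcgr4: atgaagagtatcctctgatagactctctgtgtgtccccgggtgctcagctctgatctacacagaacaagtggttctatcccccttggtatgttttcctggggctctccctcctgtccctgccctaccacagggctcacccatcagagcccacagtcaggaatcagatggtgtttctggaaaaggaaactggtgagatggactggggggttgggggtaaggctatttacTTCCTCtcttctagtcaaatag
Fcgr2b: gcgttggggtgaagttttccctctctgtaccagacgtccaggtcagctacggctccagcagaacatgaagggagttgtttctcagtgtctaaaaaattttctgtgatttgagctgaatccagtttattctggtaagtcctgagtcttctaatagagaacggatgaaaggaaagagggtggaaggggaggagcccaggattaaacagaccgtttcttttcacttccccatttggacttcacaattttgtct
The Fcgr1 window holds a GAS match, TTCCCAGAA, at 109 to 101 bases before the start, and a PU box, read as its complement TTCCTC, at 55 to 50 bases before it. The Fcgr3 window holds a PU box at 6 to 1 bases before the start and the Fcgr4 window one at 22 to 17 bases before it, both as the complement. Neither motif is found in the windows of Fcgr2b and Fcer1g. Of 32851 RefSeq windows of this length, 7.02% hold the GAS letters and 23.3% hold the PU box, so a match describes the sequence and is no evidence of binding. The GAS letters read the same on both strands, and the matches to the different motifs do not overlap.

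Fcgr1 encodes the high-affinity IgG receptor of monocytes and macrophages. It lay higher in the Instigator group than in the Non-instigator group, and the Matrigel arrays were spread over both. On Instigator arrays 1 to 5 it read 7.56, 7.42, 7.75, 8.26 and 7.27, on Non-instigator arrays 1 to 5 it read 6.78, 7.05, 6.98, 6.73 and 7.23, and on Matrigel arrays 1 to 4 it read 7.01, 6.96, 7.59 and 7.78. Every Instigator array lay above every Non-instigator array. The margin was narrow, because the lowest Instigator array (Instigator 5) exceeded the highest Non-instigator array (Non-instigator 5) by 0.04. Matrigel 1 and 2 lay among the Non-instigator arrays, and Matrigel 3 and 4 among the Instigator arrays.

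The group means of Fcgr1 were 7.65 ± 0.39 for Instigator, 6.96 ± 0.20 for Non-instigator and 7.34 ± 0.41 for Matrigel (SD, n = 5, 5 and 4). Instigator minus Non-instigator was 0.70 (SE 0.19, 95% confidence interval 0.28 to 1.11), a ratio of 1.62 (1.22 to 2.16). Instigator minus Matrigel was 0.32 (SE 0.21, -0.12 to 0.76), and Non-instigator minus Matrigel was -0.38 (SE 0.21, -0.82 to 0.06). In the order of levels, Matrigel thus stood between the tumour groups and did not separate from either beyond its spread. Because the RNA came from a sorted pool, fewer cells of a type and less RNA per cell cannot be told apart.

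**Figure D1:**
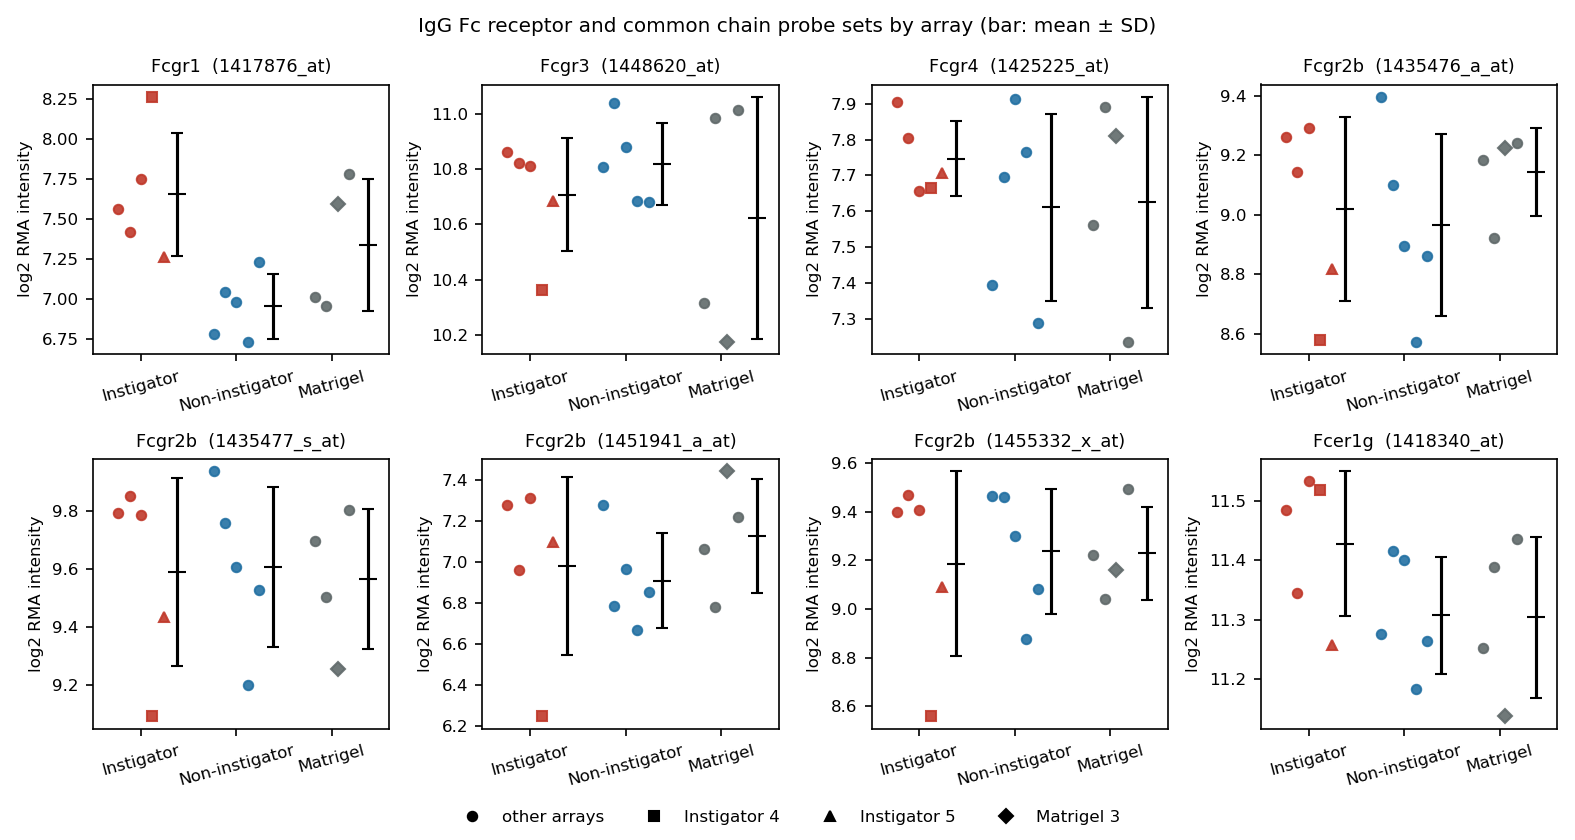
Log2 RMA intensity (vertical axes) of the 5 genes on each array by group, with 1 panel per probe set (8 in all), points for arrays, separate symbols for Instigator 4, Instigator 5 and Matrigel 3, and bars for the group mean ± SD. Fcgr1 is the only panel of the 8 in which all Instigator points, from 7.27 to 8.26, lie above all Non-instigator points, from 6.73 to 7.23.

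Instigator 4, the array with the deviating control probe sets, had the highest Fcgr1 level of the 14. Without it, Instigator minus Non-instigator was 0.55 (SE 0.17) and Instigator minus Matrigel was 0.16 (SE 0.18). Instigator minus Matrigel was also smaller without Matrigel 1 (0.21) or Matrigel 2 (0.19), and Non-instigator minus Matrigel was -0.23 without Matrigel 4. Without Instigator 5, whose labels conflict, the tumour groups differed by 0.80, and the gap between their nearest arrays widened to 0.19. With Instigator 5 counted as a Non-instigator array the difference was 0.74 and the gap 0.15. The gap was 0.22 without Non-instigator 5, and it stayed above 0 at 0.02 after either quantile normalization or centring of the arrays on their medians.

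Genes of monocytes and macrophages were read beside Fcgr1. Csf1r, the receptor for the macrophage growth factor CSF1, had 10.53, 10.62, 10.74, 12.27 and 10.27 on Instigator arrays 1 to 5, 10.56, 10.00, 10.10, 9.90 and 9.63 on Non-instigator arrays 1 to 5, and 10.25, 9.84, 10.44 and 10.28 on Matrigel arrays 1 to 4. Its highest array was again Instigator 4, and the tumour groups overlapped. Csf1r differed by 0.85 (SE 0.30) between Instigator and Non-instigator arrays and by 0.50 without Instigator 4, with an adjusted p of 0.813 in limma with all arrays. Adgre1, a surface antigen of macrophages, differed by 0.47 (SE 0.27), and by 0.23 without Instigator 4.

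Of 15 listed monocyte and macrophage genes 14 are measured. In Instigator against Non-instigator arrays 9 of them lay above 0 and 5 below, with a median difference of 0.06 (0.01 without Non-instigator 1), against 0.02 over all probe sets. Csf1r and Adgre1 had the 2 largest differences of the list there. Among the 5 below 0 were Vcam1 at -0.30 (SE 0.23) and C1qc at -0.22 (SE 0.16). In Non-instigator against Matrigel arrays 12 of the 14 lay below 0 (median -0.11, and -0.05 without Matrigel 3, against -0.04 over all probe sets). Over all probe sets 55.8% lay above 0 in the first comparison and 36.2% in the second. None of the 14 passed an adjusted p of 0.05 in limma in either comparison, while 1 and 0 of them had an unadjusted p under it (5.6% and 2.11% of all probe sets). In Instigator against Matrigel arrays, where Fcgr1 differed by 0.32, 7 of the 14 lay above 0 and 7 below (median -0.01). Without Instigator 4, 5 lay above and 9 below (median -0.02). The mean of the list per array ran from 8.51 to 9.15 in the Instigator group, with Instigator 4 at the top, from 8.49 to 8.71 in the Non-instigator group and from 8.53 to 8.81 in the Matrigel group. The part of these cells in the Fcgr1 values was not tested.

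**Figure D2:**
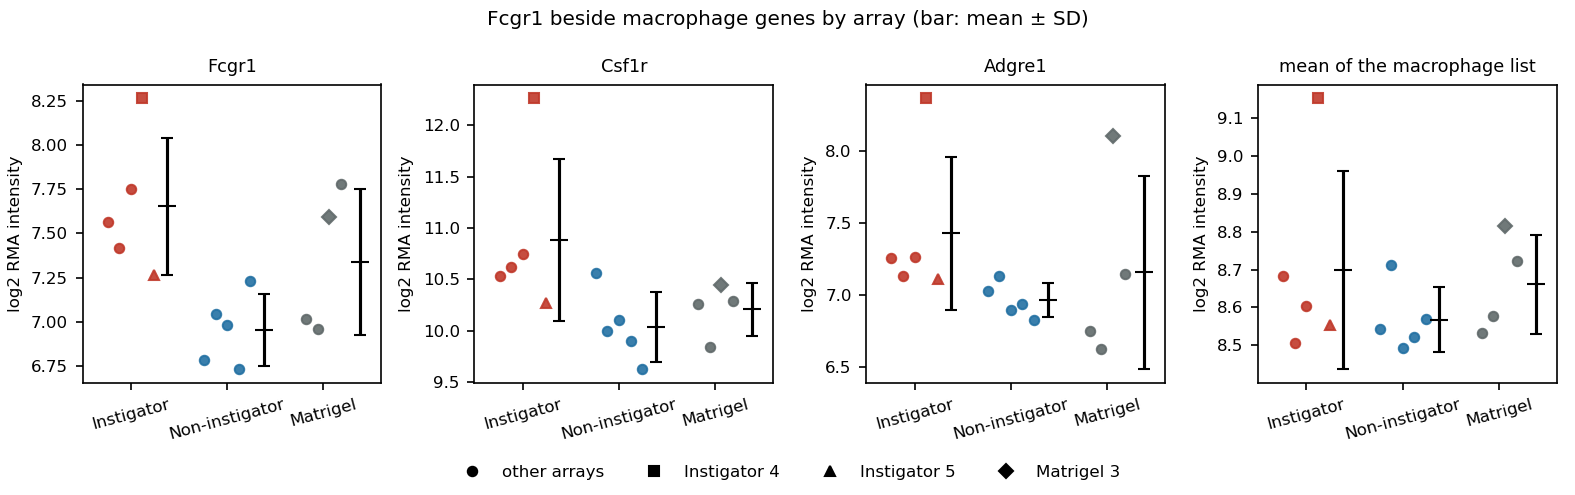
Log2 RMA intensity (vertical axes) of Fcgr1, Csf1r, Adgre1 and the mean of the macrophage list on each array by group, with points for arrays and bars for the group mean ± SD. Instigator 4, drawn as a square, is the top point of every panel, with 8.26 for Fcgr1, 12.27 for Csf1r and 9.15 for the list.

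Fcgr3 encodes a low-affinity activating receptor, the IgG receptor of NK cells and one of those on myeloid cells. Its levels were close in the 3 groups. It read 10.86, 10.82, 10.81, 10.36 and 10.68 on Instigator arrays 1 to 5, 10.81, 11.04, 10.88, 10.68 and 10.68 on Non-instigator arrays 1 to 5, and 10.32, 10.99, 10.18 and 11.01 on Matrigel arrays 1 to 4. The Matrigel arrays formed a low pair (1 and 3) and a high pair (2 and 4) that spanned nearly the whole range of the tumour groups. Instigator minus Non-instigator was -0.11 (SE 0.16, 95% confidence interval -0.45 to 0.23), and the 2 differences from Matrigel were 0.08 (SE 0.17) for Instigator and 0.20 (SE 0.17) for Non-instigator arrays. Without Matrigel 3, the lowest of the 14 arrays, they were -0.06 and 0.05.

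Genes of NK and cytotoxic cells, which carry Fcgr3, were read beside it. All 11 that are measured (of 14 listed) lay below 0 in Instigator against Non-instigator arrays, with a median of -0.42 (-0.28 without Instigator 3), and all 11 lay above 0 in Non-instigator against Matrigel arrays, with a median of 0.20. Over all probe sets 55.8% lay above 0 in the first comparison and 36.2% in the second. In limma 0 of the 11 passed an adjusted p of 0.05 in either comparison, while 6 and 1 had an unadjusted p under it, against 5.6% and 2.11% of all probe sets. The lists were chosen with earlier results of these data known, and genes of a list need not vary independently. These counts and those of the other lists, before and after, are therefore a description and no test. The mean of the list ran from 9.16 to 9.94 in the Instigator group, from 9.68 to 10.31 in the Non-instigator group and from 9.60 to 10.03 in the Matrigel group. The part of these cells in the Fcgr3 values was not tested.

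Fcgr4 encodes an activating receptor of intermediate affinity on monocytes, macrophages and neutrophils. It varied least among the Instigator arrays, which read 7.90, 7.80, 7.66, 7.66 and 7.71, against 7.39, 7.69, 7.91, 7.76 and 7.29 on Non-instigator arrays 1 to 5 and 7.56, 7.89, 7.81 and 7.24 on Matrigel arrays 1 to 4. The Instigator range lay inside that of the Non-instigator group and, but for Instigator 1, inside that of the Matrigel group. Instigator minus Non-instigator was 0.14 (SE 0.14, 95% confidence interval -0.16 to 0.43), Instigator minus Matrigel 0.12 (SE 0.15) and Non-instigator minus Matrigel -0.01 (SE 0.15). The first was 0.06 without Non-instigator 5 and 0.21 without Non-instigator 3, and the second was -0.01 without Matrigel 4 and 0.21 without Matrigel 2.

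Neutrophil and precursor genes were read beside Fcgr4. Of the 15 measured, 13 lay above 0 in Instigator against Non-instigator arrays (median 0.08), where 55.8% of all probe sets did. In Instigator against Matrigel arrays 14 lay above 0 (median 0.18), where 42.8% of all probe sets did and their median was -0.03. At an unadjusted p under 0.05 there were 0 and 5 of them, against 5.6% and 10.3% of all probe sets, and limma called 0 at an adjusted one. In Non-instigator against Matrigel arrays 11 of these 15 genes also lay above 0, with a median of 0.13 (0.07 without Matrigel 3). Over all probe sets 36.2% lay above 0 there. Their part in the Fcgr4 values was not tested.

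Fcgr2b, the inhibitory receptor, lay close in the 3 groups at all 4 of its probe sets. At the brightest, 1435477_s_at, it read 9.79, 9.85, 9.79, 9.09 and 9.43 on Instigator arrays 1 to 5, 9.94, 9.76, 9.61, 9.20 and 9.53 on Non-instigator arrays 1 to 5, and 9.70, 9.50, 9.26 and 9.81 on Matrigel arrays 1 to 4. Number 4 was the lowest array of both tumour groups, and Matrigel 3 the lowest of its own. The means were 9.59 ± 0.32 for Instigator, 9.61 ± 0.28 for Non-instigator and 9.57 ± 0.24 for Matrigel (SD, n = 5, 5 and 4). Instigator minus Non-instigator was -0.02 (SE 0.17, 95% confidence interval -0.37 to 0.34).

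The probe sets of Fcgr2b did not give the same sign in each comparison. Against Matrigel the brightest set differed by 0.03 (SE 0.18) for Instigator and by 0.04 (SE 0.18) for Non-instigator arrays. At the other sets, Instigator minus Non-instigator was 0.05 at 1435476_a_at, 0.07 at 1451941_a_at and -0.05 at 1455332_x_at. Instigator minus Matrigel was -0.13, -0.15 and -0.04 at these sets, and Non-instigator minus Matrigel was -0.18, -0.22 and 0.01. Against Matrigel the a sets thus lay below 0 and the brightest set above it, and all 95% confidence intervals of the 4 sets spanned 0. Instigator 4 was the lowest of the 14 arrays at 3 of the 4 sets, and Non-instigator 4 at 1435476_a_at, where it read 8.57 against 8.58 on Instigator 4.

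Fcgr2b and Fcgr3 have near-identical extracellular regions, and the suffixes s and x mark probe sets whose probes may match further transcripts. The probe sets of Fcgr2b followed each other over the 12 arrays without Instigator 4 and Matrigel 3, with Pearson r from 0.63 to 0.95. Their r with the Fcgr3 probe set over the same arrays was 0.15 for 1435476_a_at, 0.25 for 1435477_s_at, -0.03 for 1451941_a_at and 0.40 for 1455332_x_at. Over all 14 arrays the s set reached 0.59 and the x set 0.54. These coefficients describe arrays that share a normalization and the group structure.

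**Figure D3:**
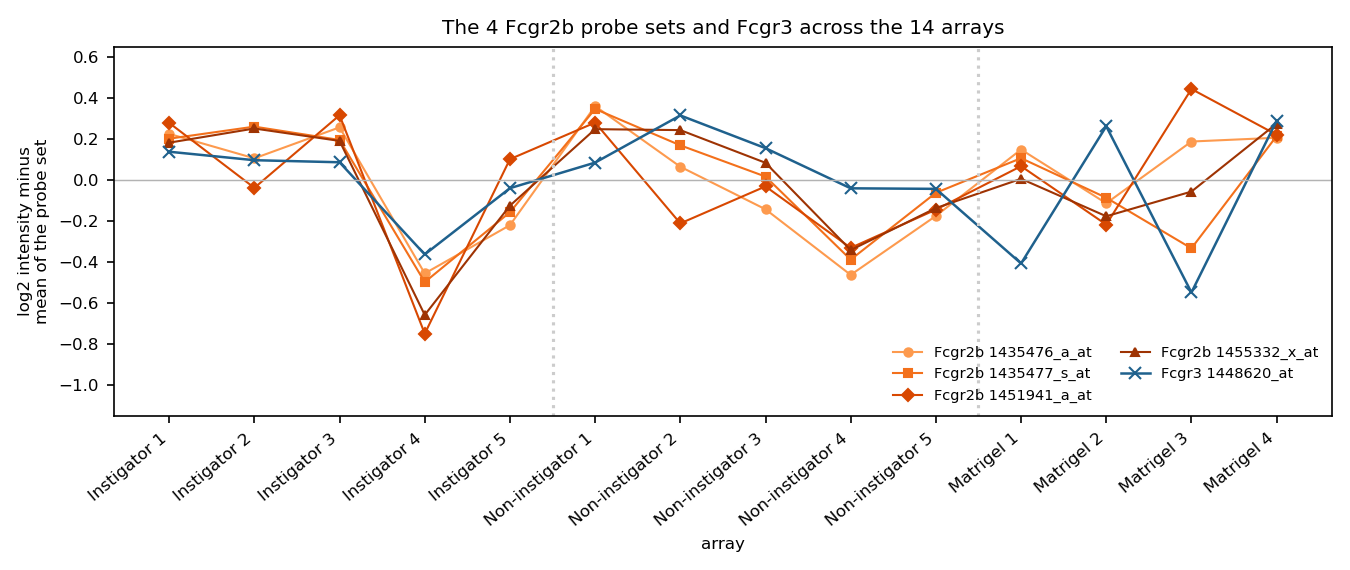
Log2 intensity at the 4 Fcgr2b probe sets and at Fcgr3, each minus its own mean over the 14 arrays (vertical axis), for every array in turn (horizontal axis), with dotted lines between the groups. The Fcgr2b lines dip together at Instigator 4 and Non-instigator 4, and on Matrigel 3 they part, where 1451941_a_at is highest of the 14 arrays and Fcgr3 lowest.

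Genes of the B lineage, whose cells carry Fcgr2b as their IgG receptor, were read beside it. Of 15 measured, 13 were below 0 in Instigator against Non-instigator arrays (median -0.32) and 13 in Instigator against Matrigel arrays (median -0.48). Over all probe sets 55.8% lay above 0 in the first comparison and 42.8% in the second. Without Instigator 3 the medians of the list were -0.06 and -0.21. In limma 0 passed an adjusted p of 0.05, while 1 and 4 had an unadjusted p under it, against 5.6% and 10.3% of all probe sets. In Non-instigator against Matrigel arrays 11 of these 15 genes also lay below 0, with a median of -0.19 (0.01 without Non-instigator 1). Over all probe sets the median was -0.04 there, and 36.2% lay above 0. Fcgr2b at its brightest set differed by -0.02 in Instigator against Non-instigator and by 0.03 in Instigator against Matrigel arrays. The part of B cells in the Fcgr2b values was not tested.

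Fcer1g encodes the common chain that Fcgr1, Fcgr3 and Fcgr4 need for signalling and for a stable place at the cell surface. It read 11.48, 11.34, 11.53, 11.52 and 11.26 on Instigator arrays 1 to 5, 11.28, 11.41, 11.40, 11.18 and 11.26 on Non-instigator arrays 1 to 5, and 11.25, 11.39, 11.14 and 11.44 on Matrigel arrays 1 to 4. The 3 highest arrays, Instigator 1, 3 and 4, were of the Instigator group, and the remaining arrays were mixed. Group SDs were 0.12 in the Instigator group, 0.10 in the Non-instigator group and 0.13 in the Matrigel group, and in the last 2 groups they were the smallest of the 8 probe sets. Instigator minus Non-instigator was 0.12 (SE 0.08, 95% confidence interval -0.06 to 0.30), Instigator minus Matrigel 0.12 (SE 0.09) and Non-instigator minus Matrigel 0.00 (SE 0.09). Without Matrigel 3, its lowest array, Instigator minus Matrigel was 0.07.

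Counted over the 8 probe sets, limma with Benjamini-Hochberg adjustment over all 22626 called 0 at an adjusted p under 0.05 in each comparison, where it called 0.0% of all probe sets in Instigator against Matrigel, 0.0% in Non-instigator against Matrigel and 0.0% in Instigator against Non-instigator arrays. At an unadjusted p under 0.05 the members counted 0 of 8 in Instigator against Matrigel (background 10.3%), 0 of 8 in Non-instigator against Matrigel (2.11%) and 1 of 8, Fcgr1, in Instigator against Non-instigator arrays (5.6%). Groups that did not overlap were found for 0 of 8 members in Instigator against Matrigel (2.69%), for 0 of 8 in Non-instigator against Matrigel (0.897%) and for 1 of 8, again Fcgr1, in Instigator against Non-instigator arrays (1.2%). Since the members were chosen with these levels known, nothing further is read from the counts. The 3 comparisons share arrays in pairs and are not independent of each other.

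**Figure D4:**
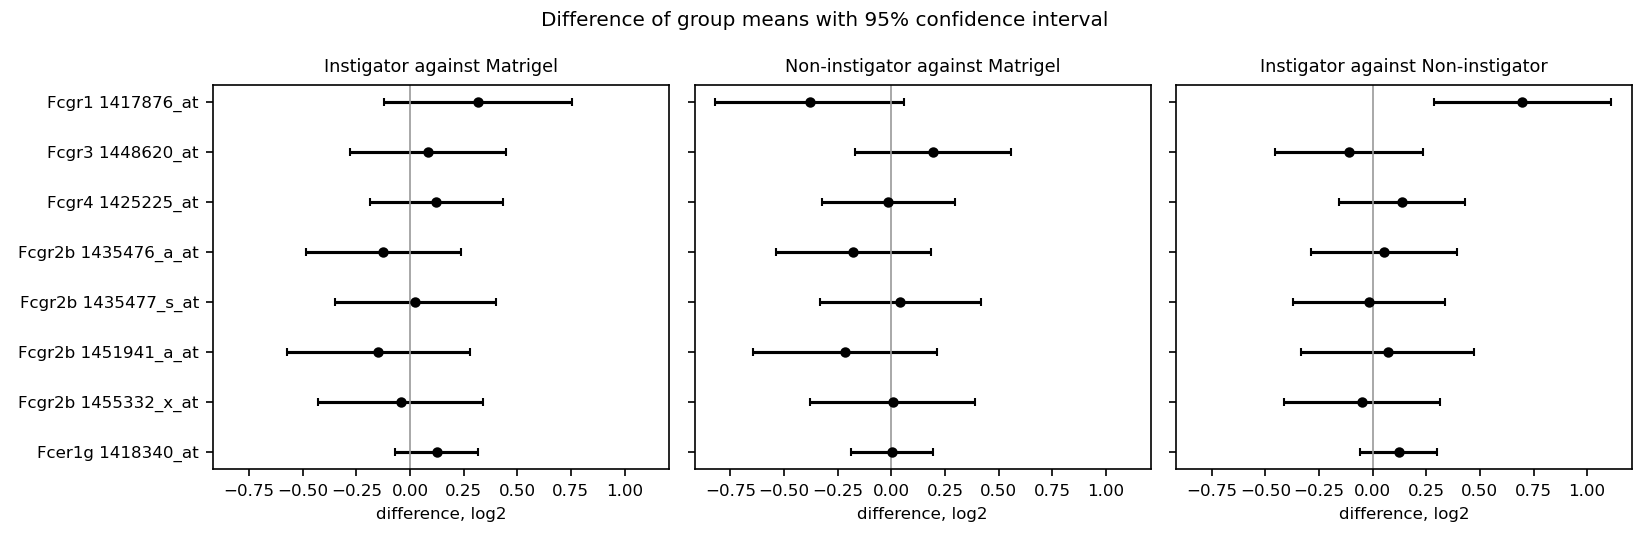
Difference in log2 intensity with its 95% confidence interval for each of the 8 probe sets in the 3 comparisons, with a line at 0. The interval of Fcgr1 in Instigator against Non-instigator arrays, 0.28 to 1.11, is the only one of the 24 that does not cross 0. The intervals are not adjusted for the number of probe sets. Since the members were chosen with these levels known, the intervals are a description and no test.

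The balance between activating and inhibitory receptors was computed on each array as the receptor minus Fcgr2b. The set 1435476_a_at was used for Fcgr2b, because the brighter s set may match further transcripts, and only changes between groups can be read, since levels of different probe sets cannot be compared. For Fcgr1 this balance differed by 0.64 between Instigator and Non-instigator arrays, by 0.44 between Instigator and Matrigel arrays and by -0.20 between Non-instigator and Matrigel arrays. The ranges of the tumour groups overlapped, with -1.72 to -0.32 in the Instigator group and -2.61 to -1.63 in the Non-instigator group. Instigator 4 alone held the upper end, and without it the differences were 0.38 from the Non-instigator and 0.18 from the Matrigel arrays. With the brightest Fcgr2b set they were 0.71 between the tumour groups, 0.29 between Instigator and Matrigel and -0.42 between Non-instigator and Matrigel arrays.

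For Fcgr3 the balance differed by -0.16 between Instigator and Non-instigator arrays, by 0.21 between Instigator and Matrigel and by 0.37 between Non-instigator and Matrigel arrays. With the brightest Fcgr2b set these were -0.09, 0.06 and 0.15, and without Matrigel 3 the differences from Matrigel were 0.03 for Instigator and 0.20 for Non-instigator arrays. For Fcgr4 the balance differed by 0.08 between the tumour groups, by 0.25 between Instigator and Matrigel and by 0.16 between Non-instigator and Matrigel arrays. With the brightest set these were 0.15, 0.10 and -0.055, and without Instigator 4 the tumour groups differed by -0.01 and Instigator from Matrigel arrays by 0.16.

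The other genes of the pathway were described in 8 lists, of which limma called 0 genes at an adjusted p under 0.05 in any comparison. The median over all probe sets was 0.02 in Instigator against Non-instigator, -0.03 in Instigator against Matrigel and -0.04 in Non-instigator against Matrigel arrays. In the same order, 55.8%, 42.8% and 36.2% of all probe sets lay above 0. Other Fc receptors (9 of 13 measured) had a median of 0.05 in Instigator against Non-instigator arrays. Fcgrt, the neonatal Fc receptor that protects IgG from degradation, differed by 0.14 (SE 0.09) there. In Instigator against Matrigel arrays the largest differences of the list were -0.57 (SE 0.28) for Fcrla, an intracellular Fc receptor-like protein of B cells, and 0.48 (SE 0.25) for Fcer1a, the IgE-binding chain of the mast cell and basophil receptor.

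The common chain also serves receptors that do not bind IgG. Of the partners 7 of 12 were measured, and 4 lay above 0 and 3 below in Instigator against Non-instigator arrays (median 0.03). Without Instigator 4 that median was -0.02. Ncr1, the NK receptor NKp46, differed by -0.59 (SE 0.23) between Instigator and Non-instigator arrays, with an unadjusted p under 0.05 and an adjusted one above it. Clec4e, the mycobacterial glycolipid receptor Mincle, differed by 0.20 (SE 0.22), and by 0.05 without Instigator 4 or 0.36 without Non-instigator 1. Its difference in Instigator against Matrigel arrays was 0.50 (SE 0.23), and 0.33 without Matrigel 3.

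Adaptors that carry an activation or related motif in other receptor families were read beside Fcer1g. All 8 of the 8 listed were measured and lay below 0 in Instigator against Non-instigator arrays, with a median of -0.35, and 7 lay below 0 in Instigator against Matrigel arrays, with a median of -0.33. The largest difference between the tumour groups was that of Cd247, the zeta chain of T cell and NK receptors, at -0.51 (SE 0.16), followed by Cd79b, a B cell receptor subunit, at -0.45 (SE 0.26), which was -0.25 without Non-instigator 5 and -0.29 without Instigator 4. The list's median between the tumour groups was -0.17 without Instigator 3 and -0.58 without Non-instigator 1, and that against Matrigel was -0.21 without Instigator 3. Tyrobp, the adaptor DAP12 of myeloid and NK cells, differed by -0.06 (SE 0.09), and by -0.01 without Instigator 4. At an unadjusted p under 0.05 there were 1 and 3 of the 8 in these comparisons, against 5.6% and 10.3% of all probe sets, and 0 adjusted. The list shares Cd79a and Cd79b with the B lineage list, and Cd3d, Cd3e and Cd3g with a list of T cell genes. Between the tumour groups the NK, B lineage and T cell lists had medians of -0.42, -0.32 and -0.20. The macrophage and neutrophil lists had 0.06 and 0.08.

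Activating signalling was measured at 22 of 27 listed genes, of which 11 lay above and 11 below 0 in Instigator against Non-instigator arrays (median 0.01). Syk, the kinase recruited by the common chain, differed by 0.03 (SE 0.21) and Plcg2, the phospholipase downstream of it, by 0.30 (SE 0.17). Without Instigator 4 these were -0.21 and 0.09. The largest differences of the list were -0.42 (SE 0.15) for Pik3r1, a regulatory subunit of phosphoinositide 3-kinase, and -0.37 (SE 0.24) for the adaptor Lat2. Without Instigator 4, on which Lat2 was lowest at 7.52, its difference was -0.10.

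Inhibitory signalling was measured at 11 of 13 listed genes, with 9 below 0 in Instigator against Non-instigator arrays (median -0.09, and -0.02 with 7 below 0 without Instigator 4). Inpp5d, which encodes SHIP1, differed by -0.11 (SE 0.13), with -0.20 to -0.05 when 1 array was left out. Ptpn6, the tyrosine phosphatase SHP-1, differed by -0.09 (SE 0.13), and by 0.03 without Instigator 4. Cbl, a ubiquitin ligase that ends receptor signals, had the largest difference of the list, -0.81 (SE 0.37) against Non-instigator and -1.22 (SE 0.40) against Matrigel arrays. Without Instigator 4, where Cbl read 7.57, these were -0.49 and -0.90. Other receptors with an inhibitory motif (13 of 15 measured) had a median of 0.04 between the tumour groups, and Cd33, a sialic acid-binding lectin, differed by 0.52 (SE 0.19) in Instigator against Matrigel arrays, and by 0.33 without Matrigel 3.

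Genes of the phagocyte oxidase and of actin remodelling, which carry out engulfment and the oxidative burst, were measured at 14 of 17, with 6 above and 8 below 0 in Instigator against Non-instigator arrays (median -0.06, and -0.02 without Instigator 4). Cybb, the catalytic subunit of the oxidase, differed by -0.32 (SE 0.24), and by -0.06 without Instigator 4. Regulators of the receptors were measured at 15 of 16, with 8 above and 7 below 0 (median 0.02). After Csf1r, the largest difference of the list was that of Csf2ra, a chain of the GM-CSF receptor, at 0.57 (SE 0.31), and at 0.23 without Instigator 4. Spi1, which encodes PU.1, differed by 0.23 (SE 0.14) between the tumour groups, and by 0.15 without Non-instigator 4. Irf1, a target of interferon-gamma, differed by -0.06 (SE 0.11), with -0.13 to 0.00 when 1 array was left out. Ifngr1, a chain of the interferon-gamma receptor, differed by 0.47 (SE 0.21) between Non-instigator and Matrigel arrays, and by 0.16 without Matrigel 3. Ifngr2, the other chain, differed by -0.14 (SE 0.27) there. Between the tumour groups Ifngr1 differed by -0.04 (SE 0.20) and Ifngr2 by -0.38 (SE 0.25). Medians of the 8 lists in Non-instigator against Matrigel arrays lay between -0.12 and 0.17.

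**Figure D5:**
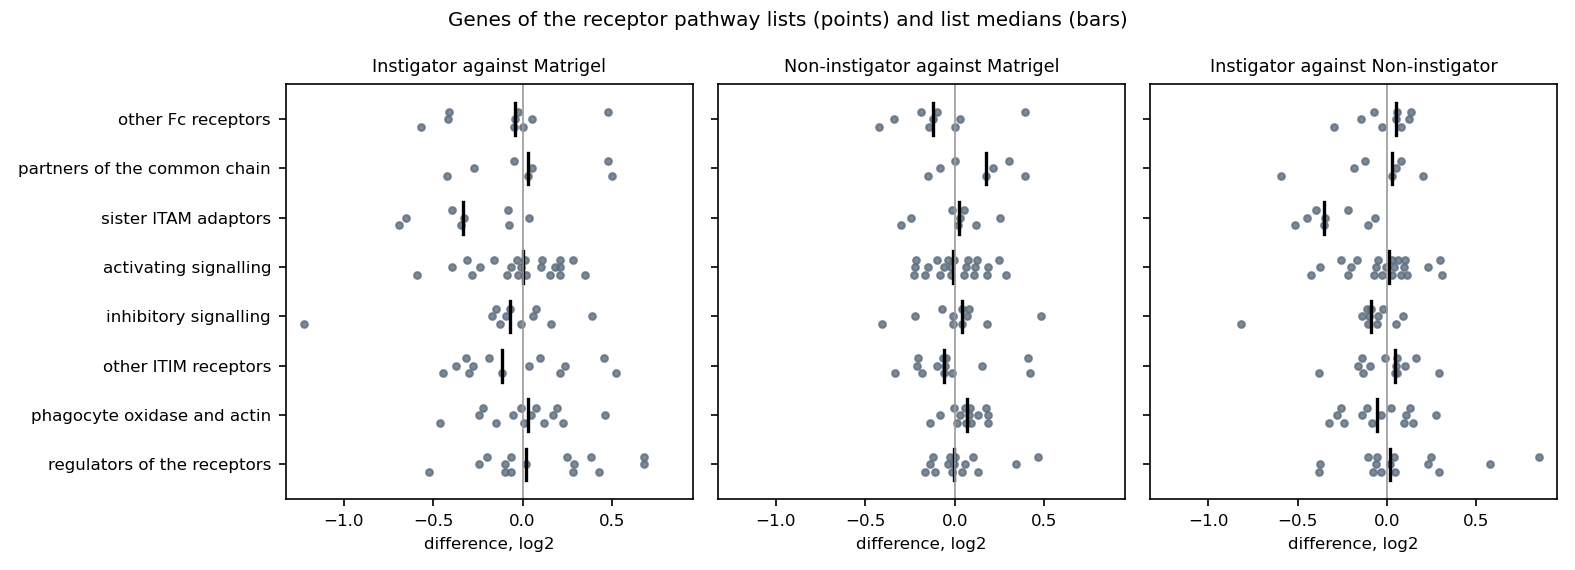
Differences in log2 intensity of the measured genes of the 8 pathway lists in the 3 comparisons, with a point per gene and a bar at the median of each list. The sister ITAM adaptors have a median of -0.35 in Instigator against Non-instigator arrays, and the other 7 medians of that comparison lie between -0.09 and 0.05. The lower level is not particular to adaptors. The NK, B lineage and T cell marker lists, not drawn, had medians of -0.42, -0.32 and -0.20 there, and the macrophage and neutrophil lists 0.06 and 0.08.

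The genes whose levels followed each receptor most closely were ranked by Pearson r over the 12 arrays without Instigator 4 and Matrigel 3, among 12388 genes, and are the highest values of that many. For Fcgr1 they were Prima1 (r = 0.93), Prokr1 (0.90) and Cnnm1 (0.89). Over all 14 arrays these had r of 0.66, 0.14 and 0.78, and the closest genes were then Aif1 (0.90), a gene of macrophages and microglia, Stx7 (0.89) and Bri3 (0.88). Between the tumour groups Prima1, Prokr1 and Cnnm1 differed by 0.20, 0.06 and 0.12 and Aif1 by 0.59, against 0.70 for Fcgr1. For Fcgr3 the closest over the 12 arrays were Cavin1 (0.93), Mc3r (0.93) and the B cell chemokine Cxcl13 (0.92). Over all 14 arrays these had r of -0.09, 0.30 and 0.52, and Ntm (0.90), Prelid3a (0.89) and Ttc36 (0.89) were then closest. Fcgr4 had Agrn (0.86), Ap1m1 (0.79) and Cd33 (0.78) over the 12 arrays, with r of 0.75, 0.44 and 0.34 over all 14. Agrn (0.75), Rflnb (0.74) and Actl7a (0.68) were closest over all 14.

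For Fcgr2b the closest genes over the 12 arrays were Clec7a (0.95), the beta-glucan receptor Dectin-1 of myeloid cells, Rrp15 (0.93) and Rfc2 (0.92). Over all 14 arrays these had r of 0.21, 0.73 and 0.11, and Rbm17 (0.92), Mrpl42 (0.90) and Spag7 (0.89) were then closest. For Fcer1g the closest over the 12 arrays were Lst1 (0.92), Sh3tc1 (0.89) and Rpl3l (0.87), with r of 0.67, 0.44 and -0.13 over all 14. Sqor (0.89), Wnt5b (0.88) and Nkx2-5 (0.87) were closest over all 14. Among the members, Fcer1g had r of 0.69 with Fcgr1, 0.61 with Fcgr3, 0.21 with Fcgr4 and 0.55 with Fcgr2b over the 12 arrays. Over all 14 these were 0.55, 0.46, 0.08 and 0.29. These coefficients describe arrays of 3 groups with a shared normalization and carry no test.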

How the data were processed

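The deposited table holds linear intensity values for 22690 probe sets on 14 Affymetrix arrays, 1 biotin-labelled sample each. Per the submitters' processing notes, the authors made these intensity values with RMA (affy, R 2.11.0). The genome build of the probe annotation is not given in the sources used here. RMA corrects background, normalizes between arrays and summarises probes, so levels of different probe sets are not comparable. Log2 was taken of the deposited values, with no further normalization. Median intensity per array ran from 119 to 145, and the number of arrays limits the precision.

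The 64 control probe sets were left out. Symbols came from the platform annotation: 20380 probe sets have 1 symbol, 691 several and 1555 none here, and 20351 of the first were found in the RefSeq table. A gene stands for its brightest probe set. The 14 arrays were fitted together in limma 3.58.1 under R 4.3.3, with the group as factor, moderated by eBayes. Benjamini-Hochberg adjustment ran over the 22626 probe sets. The members and lists were chosen with earlier results of these data known, so counts of list genes under a threshold are a description. Named genes are the members, the 3 most like each member, and a part of the 2 of largest difference per list and comparison. Others of that last kind are not discussed, among them Fcrl1, Cd72, Clec4a2, Csk, Dok2, Siglece, Was, Rac2, Lcp2 and Blnk. Genes such as Syk, Plcg2, Inpp5d, Ptpn6, Tyrobp, Fcgrt, Spi1 and Irf1 were added for their roles after their values were seen. Vcam1, C1qc and Ifngr2 were added because they go the other way from genes named beside them.

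On simulated data with 22626 probe sets, the fit called 44% of those changed by 0.5 and 92% of those changed by 1 in Instigator against Matrigel, 38% and 92% in Non-instigator against Matrigel, and 48% and 88% in Instigator against Non-instigator arrays. False calls numbered 10, 10 and 4. The simulated noise was independent, without array-wide deviations such as those of Instigator 4 and Matrigel 3. The rates thus check the fit and do not give its power on these arrays. Here Cbl, at -1.22 in Instigator against Matrigel arrays, was not called. The alternatives were the groups alone, quantile normalization, centring, brighter probe sets, a trended robust fit, the replicate block, weighted arrays, leaving out each array, moving Instigator 5, leaving out Instigator 4 with Matrigel 3, and averaging the probe sets of a gene. The effects on the balance against Fcgr2b, on list medians and on named genes were added after seeing the data. Plots were drawn with matplotlib 3.10.9 in Python 3.11.15.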

Additional observations from a re-analysis of the deposited data

How the results depend on the processing

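The 15 differences of the members (5 genes, 3 comparisons) were recomputed under 19 or 20 alternatives each. Of 290 values, 0 moved by 1 SD of the arrays or more. This count says little, because leaving out 1 array of a group of 4 or 5 cannot move a difference that far. The groups alone, the brighter probe sets and the trended robust fit change only the SE. The sign stayed for 7 of the 15 in every alternative run: all 3 of Fcgr1, Fcer1g in both comparisons with Instigator arrays, and Fcgr3 and Fcgr4 in Instigator against Non-instigator arrays. The other 8, all within 0.20 of 0, changed sign in at least 1. Fcgr1 ran from 0.55 to 0.80 in Instigator against Non-instigator, from 0.16 to 0.47 in Instigator against Matrigel and from -0.51 to -0.23 in Non-instigator against Matrigel arrays. The lowest value of the first 2 came without Instigator 4. The gap between the tumour groups in Fcgr1, examined after seeing the data, ran from 0.04 to 0.22 when 1 array was left out.

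With the replicate block, Fcgr1 differed by 0.70 in Instigator against Non-instigator, by 0.33 in Instigator against Matrigel and by -0.37 in Non-instigator against Matrigel arrays, and 0 probe sets were called in each. Arrays with the same number deviated from their group means with r between -0.20 and 0.27. Arrays with different numbers were not compared in this way, so whether a number marks anything shared was not tested. Probe sets called in Instigator against Matrigel arrays ran from 0 to 1 when 1 array was left out, and 1 was called without Instigator 4 and Matrigel 3. That probe set, of Scd2, is no member. Over all probe sets, 42.8% lay above 0 in Instigator against Matrigel, 36.2% in Non-instigator against Matrigel and 55.8% in Instigator against Non-instigator arrays. After quantile normalization these were 52.7%, 49.2% and 54.7%, and after centring 61.1%, 54.5% and 61.6%.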
